A study of Drosophila melanogaster with 12 samples.

Results

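Members of the Dpr and DIP families were taken as every row whose FlyBase symbol begins with dpr followed by a digit or with DIP-, which gave 30 of the 11236 genes with values, 20 dpr genes and 10 DIP genes. A later annotation of the genome holds 32 genes of these families, and dpr21 and DIP-lambda were not analysed here. Dpr proteins (named for the defective proboscis extension response of the first mutant) and DIPs (Dpr-interacting proteins) are immunoglobulin-domain proteins on the neuronal surface. Each DIP binds a small set of Dprs on a partner cell, and most neurons carry their own combination of both families. In flies these pairs take part in the choice of synaptic partners, in axon targeting and in the survival of certain neurons, with the optic lobe and the neuromuscular junction as the best-known settings.

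Values come from mRNA sequencing of dissected heads of Drosophila melanogaster, from 6 laboratory populations kept for 117 generations under a manipulated mating system, 3 under monogamy and 3 under polygamy. All 6 populations then passed 1 generation in a shared environment, and the flies, virgins aged 4 days, had been kept with their own sex until RNA extraction. With 1 library per sex and population there were 12 libraries in 4 groups of 3, the females and the males of either mating system. No transgene, mutation or drug is named for any group, and the population was the replicate. The libraries held 34558521 to 52282995 reads in these genes, and the deposited values (called normalised reads here) are reads scaled to nearly equal totals. Heads are mixed tissue, so fewer cells of a type and less RNA per cell cannot be told apart. The library of monogamous female 1 stood apart from the other 11, and each test of the members is given with and without it.

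All 30 members passed the filter of a mean of 10 normalised reads or more, as did 10568 of the 11236 genes with values. The lowest 12-library mean of a member was 26.9, for DIP-iota. No gene with values was at 0 in any library, so the lack of zeros tells nothing about the members. Scaled by exon length and averaged over the 11 libraries without monogamous female 1, the highest level was that of dpr7, at 4707 normalised reads per kilobase of exon. The next were dpr12 at 1870.4, dpr19 at 1827, dpr4 at 1366 and dpr18 at 1315. Of the DIPs, DIP-epsilon was highest at 990.0 per kilobase, ninth among the 30, followed by DIP-theta at 753 and DIP-gamma at 745. The lowest levels were those of DIP-iota at 18.9, DIP-beta at 98.3, dpr6 at 100.2 and DIP-alpha at 101 per kilobase.

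The spread of single members across these 11 libraries is given first as the ratio of the highest to the lowest library, which was not computed over all genes. The highest library was 1.37 to 1.94 times the lowest for 28 members, 2.26 times for dpr6 and 3.02 times for DIP-iota. The median coefficient of variation of a member within a group was 3.48% in monogamous females (2 libraries), 7.45% in polygamous females, 4.64% in males under monogamy and 6.92% in males under polygamy. Over all genes tested the medians were close to these, at 4.11%, 7.46%, 5.83% and 6.57% in the same order. The members together took 0.145% to 0.173% of the normalised reads in those 5 female libraries and 0.182% to 0.211% in the 6 male libraries. In monogamous female 1 they took 0.0772%. In level per kilobase the ranges over the 11 libraries overlapped for dpr12 (1481 to 2244) and dpr19 (1464 to 2154), and for dpr4 (1150.0 to 1578) and dpr18 (1065 to 1545). The lowest library of dpr7, at 3747 per kilobase, lay above the highest of each of these.

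**Figure D1:**
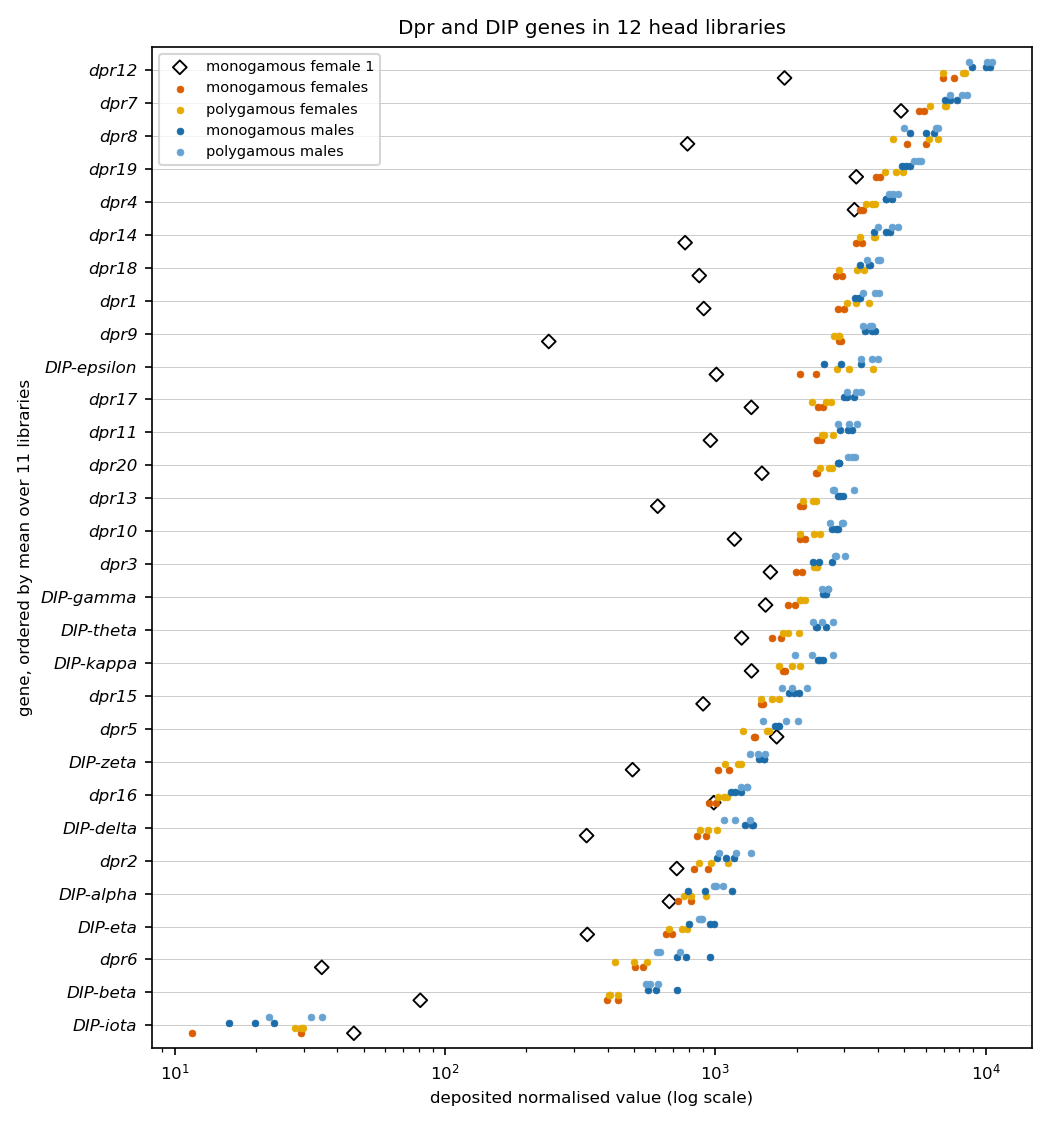
Normalised reads (log scale) of each of the 30 genes, ordered by their mean over 11 libraries, with 1 point per library coloured by group and an open diamond for monogamous female 1. The diamond lies left of the other points for 27 genes, and for dpr5, dpr16 and DIP-iota it does not; male points (blue) mostly lie right of female points.

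Monogamous female 1 had lower values than every other library for 27 of the 30 members, where 33.1% of all genes tested were below all 11 others. Against the mean of the 5 other female libraries on the log2 scale, the median deviation was -0.89 over the members, -0.89 over dpr genes and -0.80 over DIPs, and 0.055 over all genes tested. In all, 6 members were under 25% of the other females' mean, 8 lay between 25% and 50%, 13 between 50% and 90%, and 3 at 90% or more.

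The loss differed widely among the members. The value of dpr6, a ligand of DIP-alpha, was 35 normalised reads in that library, where the other females had 541, 506, 499.99, 559.6 and 424. The value of dpr9 was 242, where the other females had 2907, 2871, 2865, 2739.7 and 2858. Neither gene came near its range in the other libraries. Expressed as a share of the other females' mean, dpr6 was at 6.92%, dpr9 at 8.50%, dpr8 at 13.8%, DIP-beta at 19.5%, dpr14 at 21.5% and dpr12 at 23.6%. In contrast dpr4 was at 89.6%, dpr16 at 95.5% and dpr5 at 117%. DIP-iota was at 180% on low values, 46 against 11.6 to 29.9 in the other females.

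Members with longer exons tended to be lower in that library. Across the 30 members, which share these libraries and differ in level, the deviation had a Spearman rho of -0.63 with total exon length and -0.65 with the longest annotated 3′ untranslated region. The rho was -0.35 with the span of the gene and -0.23 with the mean level. Over 10130 tested genes with a length, the rho with exon length was -0.38. With the longest 3′ untranslated region it was -0.39 over 9766 tested genes. Exon lengths of the members ran from 1327 to 8983 bases with a median of 3386.5, above the median of 2018 bases over those genes. Genes in the top quartile of exon length had a median deviation of -0.51, while the 15 members there had a median of -1.46. DIP-alpha had the longest exons, 8983 bases, and stood at 83.5% of the other females. A later annotation supplied all lengths, and the part of length in the deviation was not tested.

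**Figure D2:**
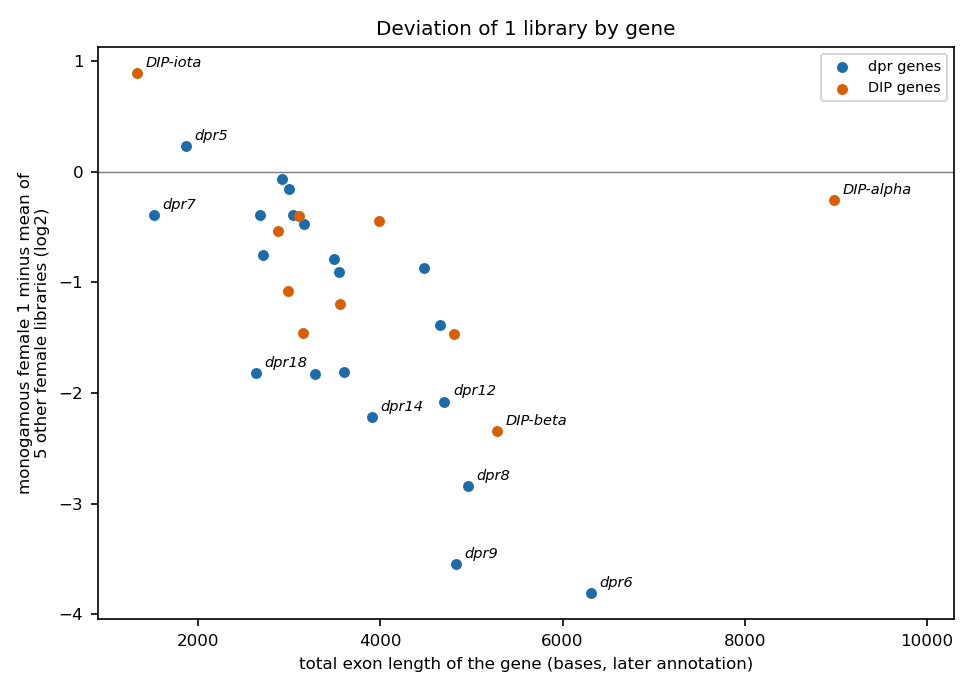
Deviation of monogamous female 1 from the mean of the 5 other female libraries (log2, vertical) against total exon length in bases (horizontal), 1 point per gene, dpr genes blue and DIPs orange. The points fall towards longer exons, from 0.89 for DIP-iota to -3.81 for dpr6, and DIP-alpha at 8983 bases lies near 0.

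Other neuronal gene lists also had a median below the other females in that library, but the photoreceptor list did not. Of all genes tested 46.3% were below. Neuronal markers had a median deviation of -2.53 with 18 of 18 below the other females' mean, and their summed value was 114342 there against 472601 to 561111 in the other females. The Beat and Side receptors, another family of paired immunoglobulin proteins, had a median of -1.24 with 21 of 21 below. Guidance receptors, cadherins and receptor phosphatases had a median of -1.90 with 22 of 23 below. Smaller deviations were seen in other immunoglobulin superfamily genes, with a median of -0.83 and 16 of 19 below. The median was -0.50 for neurexin and neuroligin genes, with 6 of 6 below. It was -0.45 for leucine-rich repeat and teneurin genes, with 7 of 9 below. Photoreceptor genes had a median of 0.21 with 4 of 9 below, and single genes ran from -1.85 to 0.54. Their summed value was 4829844 there against 3335102 to 3778912 in the other females. Glial markers had a median of 0.061 with 4 of 10 below, and ribosomal protein genes a median of 0.54 with 0 of 75 below. The part of neuronal content and of RNA quality in the members' loss was not tested.

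Members were higher in male heads than in female heads. Over all populations limma called 17 of 30 members higher in males and 0 lower with 12 libraries, where 29.5% of all genes tested were called in either direction, 20.2% higher and 9.27% lower. Without monogamous female 1 it called 28 higher and 0 lower, where 51.7% of all genes were called and 40.2% higher. The median difference of the members in that fit was 0.31 (log2), against 0.12 over all genes, and differences ran from 0.041 for DIP-iota to 0.53 for DIP-beta. Rescaling by TMM (trimmed mean of M values) lowered the differences in that fit, so that the median of all genes was 0.0055 and that of the members 0.20. On that scale 22 members were called, with 36.6% of all genes called. DIP-epsilon, DIP-alpha, dpr1, dpr2, dpr5 and dpr14 no longer passed, and the differences of dpr8 and DIP-iota, which were called on neither scale, turned to -0.044 and -0.073.

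Both sexes of 1 population can be set side by side, since each population gave a library of either. In 26 of the 30 members the male library exceeded the female library in all 6 populations. Within single populations it did so for 53.3% to 71.1% of all genes tested, and the share of all genes over all 6 was not counted. The count is on the deposited scale, without rescaling, so it includes male excesses smaller than the median of all genes. Among these were dpr1 (0.075) and DIP-epsilon (0.057) in polygamous population 3, where the median of all genes was 0.097. For DIP-alpha, dpr5 and dpr8 the male library was higher in 5 populations, and for DIP-iota in 3. The median over members was 1.23 (log2) in monogamous population 1, which holds the female library that stood apart. It was 0.37 and 0.32 in monogamous populations 2 and 3, and 0.29, 0.33 and 0.25 in polygamous populations 1, 2 and 3, where the median of all genes lay between 0.097 and 0.16.

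DIP-gamma, which marks subsets of optic lobe and motor neurons and binds dpr11, dpr15, dpr16 and dpr17, had the smallest p without monogamous female 1. Its normalised reads were 1534, 1969 and 1864 in monogamous females and 2048, 2071 and 2152 in polygamous females. They were 2573, 2552 and 2495 in monogamous males and 2486, 2618 and 2618 in polygamous males. Every male library was above every female library. Over all populations the sexes did not overlap for 17 of the 30 members with 12 libraries, where 20.2% of all genes tested did not. The numbers were 17 and 27.4% without monogamous female 1. The male excess of DIP-gamma without that library was 0.35 ± 0.031 (log2, SE; 1.28-fold; limma adjusted p = 2.24e-05), or 0.41 ± 0.061 with 12 libraries (limma adjusted p = 0.00116).

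The Dprs that bind DIP-gamma were all called higher in males in the fit without monogamous female 1. So were 28 of all 30 members and 40.2% of all genes tested. The differences were 0.30 for dpr11, 0.34 for dpr15, 0.27 for dpr16 and 0.36 for dpr17. Female libraries had 987, 1008 and 949 normalised reads of dpr16 under monogamy and 1024, 1075 and 1109 under polygamy, and male libraries had 1142, 1247 and 1180 under monogamy and 1244, 1309 and 1309 under polygamy. The sexes did not overlap, as for 20.2% of all genes tested, and monogamous female 1 lay within the female range. With 12 libraries the difference of dpr16 was 0.27 ± 0.044 (limma adjusted p = 0.00169). Exons of dpr16 and of cno overlap on opposite strands, and those of DIP-gamma and CG11828 do too. Whether counting used strand is not stated, so reads there could not be assigned with certainty.

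DIP-beta, known from lamina neurons of the visual system, and dpr6 showed the largest male excesses. The differences without monogamous female 1 were 0.53 ± 0.069 for DIP-beta and 0.52 ± 0.097 for dpr6 (1.45-fold and 1.44-fold; limma adjusted p = 2.00e-04 and 0.00147). Normalised reads of dpr6 were 958, 778 and 719 in monogamous males and 627, 739 and 608 in polygamous males, all above the female values given before. DIP-alpha, which binds dpr6 and dpr10 and is needed for the survival of certain optic lobe neurons, had a difference of 0.29 ± 0.094 (limma adjusted p = 0.0239), with overlapping sexes. That of dpr10 was 0.37 ± 0.049 (limma adjusted p = 2.44e-04), with sexes that did not overlap, as for 27.4% of all genes tested. Exons of DIP-alpha overlap those of CG2875 on the same strand and those of ppk8 on the opposite strand. Reads there could not be assigned with certainty.

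DIP-delta and its ligand dpr12, a pair that acts in the regrowth of mushroom body axons, were both higher in males without monogamous female 1. The difference was 0.47 ± 0.063 for DIP-delta and 0.36 ± 0.072 for dpr12 (limma adjusted p = 2.45e-04 and 0.00220). In both genes every male library was above every female library, and without monogamous female 1 the sexes did not overlap for 27.4% of all genes tested. With 12 libraries dpr12 was not called and DIP-delta was.

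Members of the group in which DIP-eta, DIP-theta and DIP-iota bind dpr1 to dpr5 and dpr7 were called higher in males without monogamous female 1, but for DIP-iota. In that fit 40.2% of all genes were called higher, and under TMM dpr1, dpr2 and dpr5 did not pass. Female libraries had 1251, 1753 and 1625 normalised reads of DIP-theta under monogamy and 1786, 2038 and 1860.25 under polygamy, and male libraries had 2568, 2372 and 2359 under monogamy and 2306, 2724 and 2484 under polygamy. All males exceeded all females, by 0.46 ± 0.054 (1.38-fold; limma adjusted p = 1.12e-04) without monogamous female 1 and by 0.54 ± 0.085 with it (limma adjusted p = 0.0015). Normalised reads of dpr4 were 3270, 3443 and 3504 in monogamous females and 3599, 3801 and 3905 in polygamous females. They were 4501, 4287 and 4288 in monogamous males and 4396, 4723 and 4525 in polygamous males.

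These dpr4 values did not overlap between the sexes, as for 20.2% of all genes tested with 12 libraries. The difference was 0.30 ± 0.033 (1.23-fold; limma adjusted p = 8.24e-05), or 0.31 ± 0.044 with 12 libraries (limma adjusted p = 7.74e-04). In the same fit the differences were 0.35 for DIP-eta, 0.30 for dpr7, 0.29 for dpr2, 0.28 for dpr3 and dpr5, and 0.20 for dpr1, all called. DIP-iota, the least expressed member, had a difference of 0.041 ± 0.24 (limma adjusted p = 0.90). A noncoding RNA overlaps exons of dpr4 on the opposite strand and another overlaps those of DIP-theta on the same strand, and reads there could not be assigned with certainty.

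Of the remaining members, dpr9 and dpr20 were among the 4 with the smallest p. Male normalised reads of dpr9 were 3799, 3891 and 3588 under monogamy and 3507, 3743 and 3802 under polygamy, all above the female values given before. The difference was 0.38 ± 0.034 (1.30-fold; limma adjusted p = 2.67e-05), and with 12 libraries dpr9 was not called. Female libraries had 1487, 2356 and 2381 normalised reads of dpr20 under monogamy and 2438, 2627 and 2698 under polygamy, and male libraries had 2858, 2874 and 2844 under monogamy and 3106, 3291 and 3213 under polygamy. Its sexes did not overlap, as for 20.2% of all genes tested with 12 libraries. The difference was 0.29 ± 0.033 (1.22-fold; limma adjusted p = 9.60e-05).

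In the group of DIP-epsilon and DIP-zeta, whose ligands include dpr14, dpr18, dpr19 and dpr20, all were called higher without monogamous female 1. So were 40.2% of all genes tested. Under TMM DIP-epsilon and dpr14 did not pass. Before that rescaling the differences were 0.38 for DIP-zeta, 0.32 for DIP-epsilon, 0.27 for dpr14, 0.30 for dpr18 and 0.31 for dpr19. DIP-kappa at 0.37 and dpr13 at 0.42 were called as well. Apart from DIP-iota, the member that did not pass was dpr8, with values from 4544 to 6681 across the 11 libraries. Its difference was 0.076 ± 0.12 (limma adjusted p = 0.62). Exons of DIP-zeta and of a noncoding RNA overlap on opposite strands, and reads there could not be assigned with certainty.

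**Figure D3:**
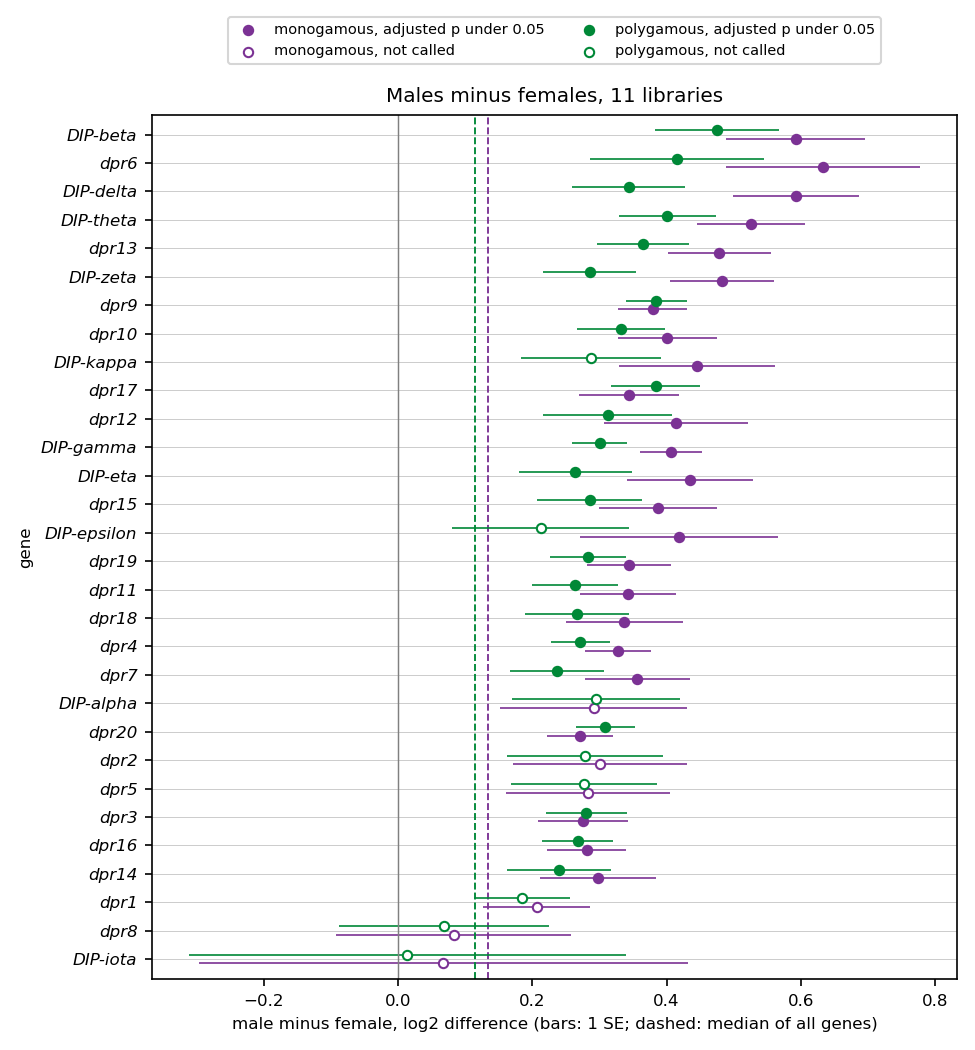
Male minus female difference (log2, bars 1 SE) of each gene under monogamy (purple) and polygamy (green) in the fit without monogamous female 1, with filled points where the adjusted p is under 0.05 and dashed lines at the median of all genes. Points lie at or right of the dashed lines for all genes but dpr8 and DIP-iota; rescaling by TMM moves the points and the dashed lines left together.

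The sex difference was also tested within each mating system. Under monogamy limma called 15 members higher in males with 12 libraries, where 22.1% of all genes were called, 14.2% higher and 7.93% lower. Without monogamous female 1 it called 24 higher, where 38.1% of all genes were called, 29.3% higher and 8.77% lower. The sexes did not overlap for 26 members with all libraries and for 27 without monogamous female 1, where 45% and 63.5% of all genes tested did not overlap. The count of members called depended on the scale and on single libraries. Under TMM 12 were called in the 11-library fit, where 24.7% of all genes were called. Starting from the 12-library fit, 25 were called without monogamous female 2. Without monogamous males 1, 2 and 3 in turn, 7, 5 and 7 were called. With all libraries the smallest p values were those of DIP-gamma (0.51 ± 0.087; limma adjusted p = 0.00356), dpr4 (0.36 ± 0.063; 0.00434), DIP-theta (0.67 ± 0.12; 0.00477) and dpr19 (0.43 ± 0.089; 0.00858). In the fit without monogamous female 1 they were those of DIP-gamma (0.41 ± 0.046), dpr9 (0.38 ± 0.051), dpr4 (0.33 ± 0.049) and DIP-theta (0.53 ± 0.081). Normalised reads of dpr19 were 3322, 4077 and 3930.3 in monogamous females against 4899, 5255 and 5089.97 in monogamous males, without overlap.

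Under polygamy limma called dpr4 and dpr16 higher in males with 12 libraries, where 7.77% of all genes were called, 4.71% higher and 3.06% lower. The sexes did not overlap for 23 members, where 46.7% of all genes tested did not. The differences were 0.27 ± 0.063 for dpr4 and 0.27 ± 0.063 for dpr16 (limma adjusted p = 0.029 and 0.0308). Leaving out any polygamous library brought the count of members called to 0. Without monogamous female 1, which enters only through the shared spread, 22 were called higher. In that case 34.6% of all genes were called, 27.2% higher and 7.38% lower. In that fit the smallest p values were those of dpr9 (0.38 ± 0.045), DIP-gamma (0.30 ± 0.041), dpr20 (0.31 ± 0.044) and dpr4 (0.27 ± 0.044). With each population as a block the same 11 libraries gave 28 calls, where 51.6% of all genes were called, and all 12 libraries gave 0, where 6.47% were.

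The size of the sex difference was not called as different between mating systems for any member. Limma called 0 members and 0% of all genes with 12 libraries, and 0 members and 0.0852% of all genes without monogamous female 1. No member had an unadjusted p under 0.05 in either fit, and edgeR and DESeq2 called 0 members with 12 libraries. The median of the members was 0.35 with 12 libraries and 0.070 without monogamous female 1, against 0.013 and 0.012 over all genes. The members with the smallest p were DIP-gamma with 12 libraries (0.21 ± 0.12; limma adjusted p = 0.73) and DIP-delta (0.25 ± 0.13; limma adjusted p = 0.61) without that library.

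DIP-delta illustrates the values behind that term. Its normalised reads were 334, 926 and 858 in monogamous females and 881, 1016 and 936 in polygamous females, against 1382, 1365 and 1289 in monogamous males and 1075, 1346 and 1183 in polygamous males. The male libraries of the mating systems overlapped in part of their range, with the 3 monogamous males close together.

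Between mating systems few members passed any test, and DIP-epsilon had the largest differences without monogamous female 1 apart from the barely expressed DIP-iota. DIP-epsilon has been reported in fly neurons that express the courtship gene fruitless. Its normalised reads were 1009, 2353 and 2051 in monogamous females against 2819, 3125 and 3827 in polygamous females. They were 3448, 2914 and 2518 in monogamous males against 3461, 3806 and 3981 in polygamous males. The mating systems did not overlap in either sex, with monogamous male 1 and polygamous male 1 close to each other.

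For DIP-epsilon the difference of population means, monogamous minus polygamous, was -0.64 ± 0.14 (0.642-fold; limma adjusted p = 0.28), which is not past the threshold. Without monogamous population 1 it was -0.51 ± 0.11 (limma adjusted p = 0.16). In females it was -0.93 ± 0.27 with all libraries and -0.56 ± 0.15 without monogamous female 1 (limma adjusted p = 0.23 and 0.15). In males it was -0.35 with SE 0.27 and 0.13 in these fits (limma adjusted p = 0.73 and 0.13). DESeq2 on summed recovered reads called the population difference, at -0.55 (adjusted p = 0.00336), where it called 3.56% of all genes. Limma with array weights, which give less weight to a library that deviates, called it too at -0.59 (adjusted p = 0.0315), where 5.15% of all genes were called.

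In males limma called 0 of 30 members with 12 libraries, where 0.643% of all genes were called. No member had an unadjusted p under 0.05 there, and edgeR and DESeq2 called 0. Without monogamous female 1, which enters through the shared spread only, limma called 1 member lower and 0 higher, where 8.15% of all genes were called, 4.62% higher and 3.53% lower. This was dpr20, whose 3 monogamous male libraries (2858, 2874 and 2844) lay below the 3 polygamous ones (3106, 3291 and 3213). Its difference was -0.16 ± 0.044 (0.893-fold; limma adjusted p = 0.0499). The call ended under TMM, at -0.14 (limma adjusted p = 0.0791), and under edgeR, at -0.15 (adjusted p = 0.0638).

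The members with the smallest p in males with 12 libraries were dpr3 and dpr16. Normalised reads of dpr3 were 2428, 2297 and 2691 in monogamous males against 2788, 3024 and 2769.6 in polygamous males, without overlap, at -0.21 ± 0.10 (limma adjusted p = 0.48). Those of dpr16 overlapped, at -0.11 ± 0.063 (limma adjusted p = 0.55). The mating systems did not overlap in males for 5 members (dpr1, dpr3, dpr19, dpr20 and DIP-epsilon), all lower under monogamy, where 31.8% of all genes tested did not overlap. In the other direction dpr6 had the largest value, 0.31 ± 0.13 without monogamous female 1 (limma adjusted p = 0.16), with overlapping libraries. Over the 30 members the median difference was -0.050, against -0.025 over all genes.

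In females limma called 0 of 30 members in either fit, and 0% of all genes. In all, 8 members had an unadjusted p under 0.05 in each fit, where 17.7% and 18.3% of all genes did, and edgeR called 0 members in both while DESeq2 called 0 with 12 libraries. The smallest p values were those of DIP-epsilon, given above, and dpr19. Normalised reads of dpr19 were 3322, 4077 and 3930.3 in monogamous females against 4250.35, 4669.9 and 4938 in polygamous females. These did not overlap, and the difference was -0.29 ± 0.089 with all libraries and -0.20 ± 0.063 without monogamous female 1 (limma adjusted p = 0.24 and 0.17).

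The median of the members in females moved with 1 library. It was -0.37 with all 12 libraries and -0.12 without monogamous female 1, against -0.029 and -0.034 over all genes, a change in the members of more than 1.5 times. Without that library 28 members were lower under monogamy and dpr6 and dpr9 were higher, none past the threshold. The groups did not overlap for 12 members with all libraries and for 13 without monogamous female 1, where 23.6% and 36.7% of all genes tested did not.

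On population means limma called 0 members and 0% of all genes with and without monogamous population 1. Unadjusted p values under 0.05 were found for 5 and 6 members, where 14.2% and 17.6% of all genes had one. EdgeR called 0 in both, and DESeq2, run with all populations, called DIP-epsilon alone. The mating systems did not overlap for 8 members and, without monogamous population 1, for 10, where 28.7% and 39.4% of all genes tested did not. After DIP-epsilon, dpr3 had the smallest p, at -0.27 ± 0.081 (limma adjusted p = 0.31) and -0.20 ± 0.059 without monogamous population 1 (limma adjusted p = 0.20). Female normalised reads of dpr3 were 1598, 1992 and 2086 under monogamy and 2322, 2370.2 and 2368 under polygamy, without overlap.

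**Figure D4:**
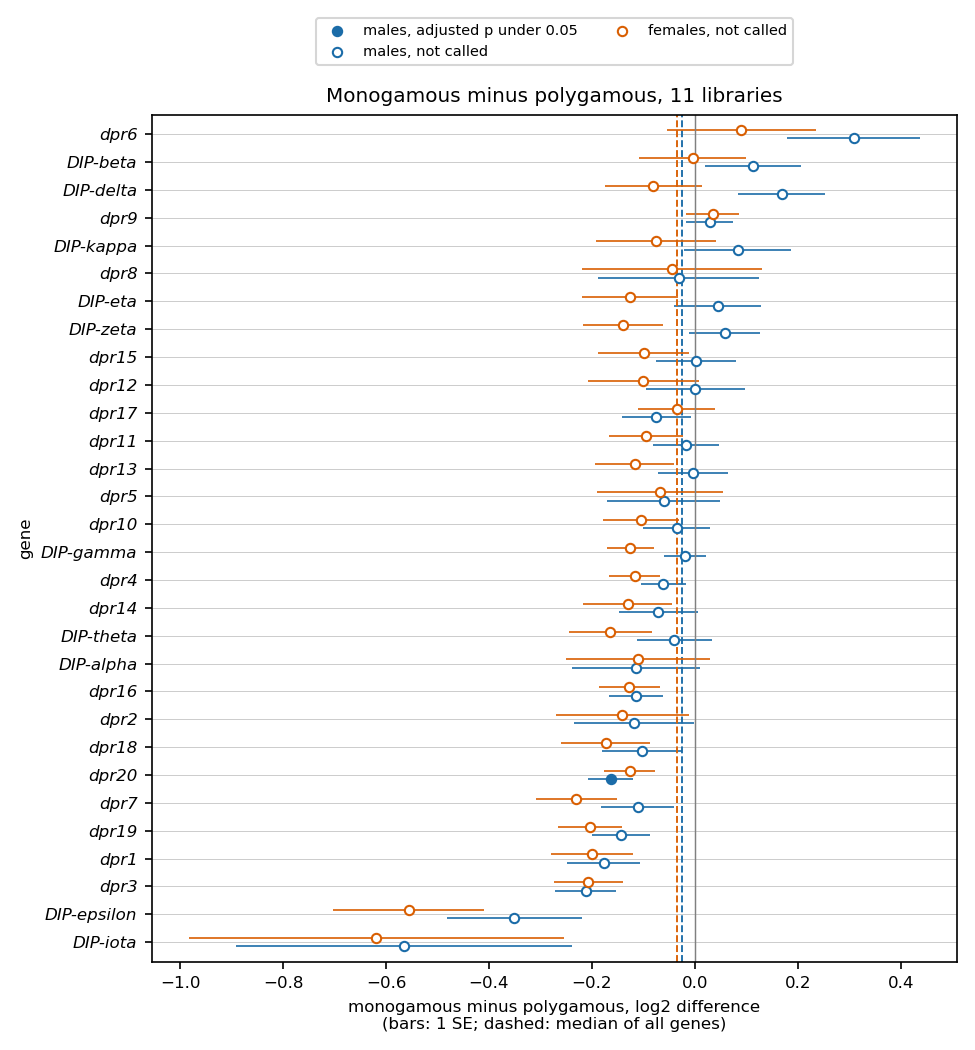
Monogamous minus polygamous difference (log2, bars 1 SE) of each gene in males (blue) and females (orange) in the fit without monogamous female 1, with dashed lines at the median of all genes. DIP-epsilon and DIP-iota lie farthest left in both sexes, and dpr20 in males is the only filled point (adjusted p = 0.0499), open again under TMM.

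Other families of neuronal recognition proteins, tested in the same fit over all populations without monogamous female 1, were also higher in males. Of all genes tested 40.2% were called higher there and 11.4% lower. Of the Beat and Side receptors 20 of 21 were called higher, with a median of 0.30 and side-VII (0.30) and side-II (0.30) having the smallest p. Of other immunoglobulin superfamily genes 16 of 19 were called higher, with a median of 0.28, led by klg (0.39) and bdl (0.40), both cell adhesion proteins of the visual system. Of leucine-rich repeat and teneurin genes 7 of 9 were higher and 1 lower, with a median of 0.30, led by Toll-6 (0.44) and trn (0.36). Of guidance receptors, cadherins and receptor phosphatases 22 of 23 were higher, with a median of 0.26, led by Ptp10D (0.25) and Eph (0.30). Of neurexin and neuroligin genes 5 of 6 were higher and 1 lower, with a median of 0.36, led by Nlg4 (0.41) and Nrx-IV (0.32). With all 12 libraries 20.2% of all genes were called higher in males. In the order named, the lists then had 9 of 21, 8 of 19, 4 of 9, 7 of 23 and 4 of 6 higher, with 0 lower. Under TMM without monogamous female 1 the calls higher were 17, 10, 5, 11 and 5. Each list but the Beat and Side and other immunoglobulin lists had 1 lower, and the medians were 0.14 to 0.24. On that scale 36.6% of all genes were called in either direction. In the order named edgeR called 16 of 21, 10 of 19, 6 of 9, 12 of 23 and 6 of 6 in either direction, where it called 35.4% of all genes.

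Markers of cell types moved in the same comparison. All 18 neuronal markers were called higher in males, with a median of 0.35, among them ChAT (0.50), the enzyme of acetylcholine synthesis, and futsch (0.65), a microtubule-associated protein of axons. Their summed value was 472601 to 561111 in the 5 other females and 598467 to 689372 in males. Glial markers were higher in 9 of 10, with a median of 0.42, led by alrm (0.83) and Eaat1 (0.38). Photoreceptor genes were higher in 6 of 9, with a median of 0.21, led by inaD (0.29) and inaC (0.22). In that fit 40.2% of all genes were called higher, and with all 12 libraries 20.2%. The calls with all 12 libraries were 6 of 18 neuronal markers, 7 of 10 glial markers and 2 of 9 photoreceptor genes. Under TMM without monogamous female 1 the calls were 12, 7 and 1, with a photoreceptor median of 0.093. On that scale 36.6% of all genes were called in either direction. EdgeR called 12 neuronal markers, 7 glial markers and 2 photoreceptor genes, where it called 35.4% of all genes.

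Muscle, fat body and ribosomal protein genes went the other way in that fit, where 11.4% of all genes were called lower. Muscle genes were higher in 1 and lower in 5 of 9, with a median of -0.19, led by Mhc (-0.37) and Tm2 (-0.36). Fat body genes were higher in 1 and lower in 5 of 8, with a median of -1.40, led by the yolk protein genes Yp2 (-8.39) and Yp1 (-8.60). Ribosomal protein genes were lower in 74 of 75, with a median of -0.70, and of 5 hemocyte genes 0 were called by limma or edgeR and 0 had an unadjusted p under 0.05, with a median of 0.045, or -0.074 under TMM. The members' median of 0.31 lay between the medians of the families named above, and the part of neuronal or other tissue content in the members' sex difference was not tested.

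In the mating comparison in males without monogamous female 1, the recognition families had few calls. Of all genes tested 4.62% were called higher under monogamy there and 3.53% lower. In these families beat-VII (0.53 ± 0.13; limma adjusted p = 0.0343), bdl (0.57 ± 0.065; 0.00256) and Cont (0.18 ± 0.040; 0.0262) were called higher under monogamy. In all, 1 of 21 Beat and Side genes was called, and 3 higher and 1 lower of 19 other immunoglobulin genes. Of the guidance, leucine-rich repeat and neurexin lists 0 genes were called by limma on the deposited scale or by edgeR, with 4 of 23, 2 of 9 and 4 of 6 at an unadjusted p under 0.05. Under TMM limma called 1 of the 6 neurexin and neuroligin genes higher, where 8.37% of all genes were called. Of the 18 neuronal markers 0 were called by either, with 9 at an unadjusted p under 0.05 and a median of -0.024. Glial markers were higher in 7 of 10, with a median of 0.31, led by Gat (0.77) and alrm (0.81). Hemocyte genes were higher in 4 of 5, with a median of 0.82, led by NimC1 (1.19) and Hml (0.86). Of the 8 fat body genes 2 were called lower, to (-0.70) and Yp2 (-0.37), and 0 higher. The median of the fat body list was 0.14, with 4 of 8 differences positive. These counts rested on leaving out that female library, which enters through the shared spread. With all 12 libraries limma called 3 of 10 glial markers, 2 of 5 hemocyte genes and 0 genes of the fat body and recognition lists. It called 0.643% of all genes in that fit.

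In the genome the members are spread over all major arms, by the later annotation. DIP-alpha, DIP-beta, dpr8, dpr14 and dpr18 lie on X, 16.7% of the members against 16.6% of all genes tested with a chromosome. On 2L there are 9 members, on 2R 3, on 3L 4, on 3R 8, and dpr7 lies on 4. The genes dpr4 and dpr5 are neighbours with no coding gene starting between them, and DIP-eta and DIP-theta, and dpr15 and dpr17, have 1 between them. The sex differences of the neighbours dpr4 and dpr5 without monogamous female 1 were 0.30 ± 0.033 and 0.28 ± 0.082. The X-linked members had sex differences of 0.29, 0.53, 0.076, 0.27 and 0.30 in the order named, and so included the largest and one of the smallest.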

How the data were processed

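The submitters' processing notes name TopHat2, HTSeq, DESeq2 and build BDGP5; their roles, versions and the strand setting were not given in the sources used here. Per the labels' protocols, extraction was with RNAzol and an Illumina mRNA-Seq kit served for the libraries. Each deposited value is a signal, reads that the authors multiplied by a factor of the library, as the values show, so that columns sum to 45916924 to 45943793. Dividing by the value of 1 read gave whole reads in 100% of values at a tolerance of 0.1. Columns left out numbered 0. The number of flies per library is not stated.

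The scale used was log2(value + 1), and genes with a 12-library mean of 10 or more were kept (10568). Group means were fitted to all libraries, or to 6 population means, by limma 3.58.1 under R 4.3.3 with a trend in the spread (eBayes). P-values were adjusted by Benjamini-Hochberg over all genes tested and called under 0.05. A fold change is on that log2 scale, which understates changes of low genes. Positive differences mean higher under monogamy or in males. The main test was planned for normalised values, and the files hold such values; edgeR 4.0.16 and DESeq2 1.42.0 on recovered reads were alternatives. Only the limma fits of group means to all 12 libraries were tested on simulated data, drawn with a common spread and no deviating library. The fits of population means, without monogamous female 1 and with a replicate block were not tested in this way. Symbols, chromosomes and exon lengths came from a later annotation, which matched 10782 identifiers to a symbol, and no coordinates are given.

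Every member is named. Values of each library are given for the members past the threshold in a comparison (at most the 4 with the smallest p), or, where none passed, for the 2 with the smallest p; other values were chosen after they were seen. From each gene list up to 2 called genes with the smallest p are named. The members and lists were chosen with earlier results of these data known.

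By the labels, a male and a female library with 1 number share a population. The correlation of their deviations from the group mean was 0.0908 to 0.474, against -0.329 to 0.0516 between populations. For the sex comparisons both sexes were therefore treated as paired in the alternative with a replicate block. For the mating comparisons the block was the library number, but numbers across mating systems name different populations, with correlations of -0.124 to 0.146. Standard errors and p-values measure the spread between these libraries only.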

Additional observations from a re-analysis of the deposited data

How the results depend on the processing

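Counts of members called moved by more than 1.5 times as follows, with the cause not tested and the share of all genes called given in percent. Over all populations the 17 members higher in males became 7 under TMM (22.6%), 6 under upper-quartile (17%) and 8 under median-of-ratios scaling (22.7%), 28 with array weights (58.5%), 6 by edgeR (22.5%) and 10 by DESeq2 (24.2%), and 12 to 28 when single libraries were left out. Under monogamy the 15 became 5, 2 and 6 under these scalings (17%, 13.4% and 17.1%), 27 with array weights (49.2%), 0 when only the compared groups were fitted (5.05%), 4 by edgeR (17%) and 8 by DESeq2 (21.3%), and 5 to 25 when single libraries were left out. Without monogamous female 1 the 24 became 12 under TMM (24.7%), 12 by edgeR (23.8%) and 13 under median-of-ratios scaling (24.7%). Under polygamy the 2 became 0 under each scaling (3.51% to 6.28%), by edgeR (6.23%), by DESeq2 (8.77%) and with the replicate block (6.47%). They became 23 with array weights (38%), 17 when only the compared groups were fitted (25.3%), and 0 to 22 when single libraries were left out. Without monogamous female 1 the 22 became 9 under TMM (18.3%), 9 by edgeR (17.9%) and 11 under median-of-ratios scaling (18.7%). Median-of-ratios scaling without that library was added after seeing the data. In males the 0 members differing between mating systems became 3 with array weights (DIP-epsilon, dpr3 and dpr20; 17.2%) and 0 to 1 when single libraries were left out. The 1 member without monogamous female 1 became 0 under TMM (8.37%), by edgeR (7.82%) and under median-of-ratios scaling (8.18%). In females array weights called 1 member, DIP-epsilon (2.07%). On population means array weights (5.15%) and DESeq2 (3.56%) each called 1.

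With populations as the replicate block, 16 members were called over all populations (29.7%) and 14 under monogamy (20.5%), against 17 and 15 without it. Without monogamous female 1 it called 28, 27 and 28 members in the sex comparisons over all populations, under monogamy and under polygamy, where 61.7%, 48.9% and 51.6% of all genes were called. Between mating systems a number is shared by different populations, so a replicate block of numbers pairs nothing by design. In females without monogamous female 1 that fit called 2 members, dpr7 and dpr19 (4.56%), which gives no support to either. No called member changed sign under an alternative run for it. The smallest values behind these counts were 11.6 to 46 normalised reads for DIP-iota, and 35 for dpr6 and 81 for DIP-beta in monogamous female 1.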
